A study of Homo sapiens with 3 samples.

Results

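MHC class I antigen presentation was followed through 9 genes in single-cell RNA-seq of prostate cancer cell lines. The genes were listed by name, namely the heavy chains HLA-B, HLA-C and HLA-E, the light chain B2M, the peptide transporter subunits TAP1 and TAP2, the loading factor TAPBP, the peptide-trimming enzyme ERAP1 and the transcriptional regulator NLRC5. All 9 had a row in each of the 3 count files, which together list 33423 genes. LNCaP and VCaP are established lines from metastases of prostate cancer, and enzalutamide (ENZ) is a drug that blocks the androgen receptor. The LNCaP–ENZ168 library was made from LNCaP cells exposed to ENZ at 10 µM for 168 h. VCaP cells were exposed to ENZ at 10 µM for 48 h (VCaP–ENZ48) or to 0.1% DMSO, the solvent, for the same 48 h (VCaP parental). With 1 Drop-seq library per group, no difference had a replicate check, no test was made and all intervals cover counting error only. Line, time and library differed together between LNCaP–ENZ168 and VCaP–ENZ48, and their effects cannot be told apart.

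An MHC class I molecule is a membrane heavy chain paired with β2-microglobulin, the product of B2M, and it shows short peptides from the inside of the cell to CD8 T cells. Proteasomes cut the peptides, the TAP1–TAP2 pump moves them into the endoplasmic reticulum, ERAP1 trims them, and tapasin (TAPBP) with the chaperones CALR, CANX and PDIA3 helps load them. Interferons raise transcription of these genes, partly through NLRC5, a coactivator that works with RFX, CREB/ATF and NF-Y proteins at their promoters, and tumour cells often express them weakly. HLA-E presents mainly leader peptides of other class I heavy chains to NK cell receptors.

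The libraries kept 944 (LNCaP–ENZ168), 997 (VCaP parental) and 947 (VCaP–ENZ48) of 1000 barcodes each, with 6313283, 19515202 and 14301287 UMIs (unique molecular identifiers, 1 per captured mRNA molecule). The median cell held 5389, 17817 and 11224 UMIs, so shares of cells were compared after each cell was thinned to 2000 UMIs. Each library shared 1 barcode with another. Barcodes that ended in N in place of a base numbered 212, 860 and 869, and values without them are given for part of the results. ERG, which VCaP expresses from a gene fusion, had 0 UMIs in LNCaP–ENZ168 (a count of 0 allows 0.475 CPM, the UMI count scaled to a common library total) against 105 and 57.1 CPM in VCaP parental and VCaP–ENZ48, and the luminal keratins KRT8 and KRT18 were at 98.4 to 460 CPM in every library. Of 5 leukocyte, 2 endothelial and 4 fibroblast markers, 10 stayed at or below 2.06 CPM everywhere, including PTPRC, CD3E and COL1A2 at 0 to 0.07 CPM. The exception was LUM, at 0.317 CPM in LNCaP–ENZ168, 21.0 CPM in VCaP parental and 25.2 CPM in VCaP–ENZ48, and its part in the results was not tested.

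By annotation on GRCh38, 6 of the 9 genes lie in the MHC region of chromosome 6. These are HLA-E (30489509 to 30494194, plus strand), HLA-C (31268749 to 31272130, minus), HLA-B (31353872 to 31367067, minus), TAP2 (32821833 to 32838739, minus), TAP1 (32845209 to 32853816, minus) and TAPBP (33299694 to 33314284, minus). B2M lies on chromosome 15 (44711358 to 44718851, plus), NLRC5 on chromosome 16 (56989485 to 57083531, plus) and ERAP1 on chromosome 5 (96760810 to 96808100, minus). TAP1 overlaps the proteasome gene PSMB9 and ERAP1 overlaps CAST, both on the other strand, and TAP2 overlaps an unnamed gene on its own strand. HLA-B, TAPBP and NLRC5 each overlap an unnamed gene on the other strand. The sources used here do not say whether counting used strand, so the levels of the genes overlapped on the other strand are uncertain to that extent. For TAP2, strand would not separate the overlapping gene, and how its reads were assigned was not tested. In the last 500 bases of the annotated transcripts, where Drop-seq reads fall, 2.88% of 50-base windows of HLA-B were also found in HLA-C and the reverse, and none of those of the other 7 genes were found in another gene. The reference carries 1 allele of each gene, and how many reads of the alleles of these lines were lost in alignment was not tested.

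The start regions of the genes on which the comparisons turned are shown here, with the letters searched for the factors of interferon and NLRC5 signalling, which not every gene carries. Each line gives the 200 bases before the RefSeq start (GRCh38.p14), read on the gene's strand. The genomic windows are chr6:31357180-31357379 for HLA-B, chr6:31272093-31272292 for HLA-C and chr6:33314079-33314278 for TAPBP, all on the minus strand, and chr15:44711317-44711516 on the plus strand for B2M. Capitals mark matches on either strand to the interferon-stimulated response element (ISRE, GAAANNGAAA), the core of the CREB/ATF site (TGACG), the NF-Y box (CCAAT) and the NF-κB consensus.
HLA-B: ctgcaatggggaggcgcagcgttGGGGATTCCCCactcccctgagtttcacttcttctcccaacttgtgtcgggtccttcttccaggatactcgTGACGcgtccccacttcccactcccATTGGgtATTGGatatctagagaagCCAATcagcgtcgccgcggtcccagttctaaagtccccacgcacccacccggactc
HLA-C: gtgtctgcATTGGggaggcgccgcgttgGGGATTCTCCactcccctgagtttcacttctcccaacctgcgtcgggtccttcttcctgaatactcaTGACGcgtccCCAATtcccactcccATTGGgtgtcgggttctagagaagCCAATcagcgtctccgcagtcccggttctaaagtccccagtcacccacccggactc
B2M: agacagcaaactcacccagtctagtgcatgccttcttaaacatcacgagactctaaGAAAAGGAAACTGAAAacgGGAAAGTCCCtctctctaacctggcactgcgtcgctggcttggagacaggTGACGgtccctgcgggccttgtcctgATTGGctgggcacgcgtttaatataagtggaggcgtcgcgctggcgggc
TAPBP: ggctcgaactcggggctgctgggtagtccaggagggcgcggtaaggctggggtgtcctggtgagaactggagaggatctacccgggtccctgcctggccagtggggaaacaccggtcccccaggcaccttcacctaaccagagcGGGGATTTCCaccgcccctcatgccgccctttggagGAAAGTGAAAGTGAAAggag
HLA-B held TGACG 106 bases before the start, CCAAT on either strand 81, 74 and 56 bases before it and a pair of overlapping NF-κB matches at 177 and 176. HLA-C had almost the same order, with TGACG at 105, CCAAT at 192, 95, 80 and 56 and NF-κB at 172, and the 300-base windows of both genes were identical in 88.5% of 304 aligned columns. B2M carried a pair of overlapping ISRE matches at 144 and 138, NF-κB at 125, TGACG at 75 and CCAAT at 49, and TAPBP a pair of overlapping ISRE matches at 20 and 14 with NF-κB at 56.

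The 300-base windows around the start of 7 genes, all but HLA-E and NLRC5, were searched. These genes had 9 windows, and a gene was counted when any of its windows matched. The shares over all promoters are per window, so the units differ. The ISRE letters were in B2M, TAPBP, TAP1, TAP2 and ERAP1 (5 of 7 genes) and in 3.57% of all 35116 promoter windows. NF-κB matches were in 6 of 7 genes and 11.3% of all windows, CCAAT in 5 of 7 and 34.6%, and TGACG in 4 of 7 and 24.6%. Neither HLA-B nor HLA-C held the ISRE letters as searched, and inexact matches to the element were not looked for. A match describes the sequence only and was not tested as a site.

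Apart from the sparse NLRC5, the heavy chains differed most between libraries, and all 3 were ordered the same way. HLA-B had 7.33 CPM in VCaP parental (143 UMIs, 95% interval 6.18 to 8.63), 17.4 CPM in VCaP–ENZ48 (15.3 to 19.7, 249 UMIs) and 91.7 CPM in LNCaP–ENZ168 (84.4 to 99.5, 579 UMIs). HLA-C was at 14.1 CPM (12.5 to 15.9, 276 UMIs), 27.6 CPM (24.9 to 30.4, 394 UMIs) and 128 CPM (119 to 137, 805 UMIs), in the same order. Both were lowest in VCaP parental, intermediate in VCaP–ENZ48 and highest in LNCaP–ENZ168, with no overlap of the intervals. HLA-E was near the limit of detection in VCaP, at 0.717 CPM in VCaP parental (14 UMIs, 0.392 to 1.20) and 2.17 CPM in VCaP–ENZ48 (1.47 to 3.08, 31 UMIs), and reached 43.1 CPM in LNCaP–ENZ168 (38.1 to 48.5, 272 UMIs).

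The light chain had another order. B2M was at 858 CPM in VCaP parental (845 to 871, 16748 UMIs), 486 CPM in VCaP–ENZ48 (475 to 498, 6954 UMIs) and 418 CPM in LNCaP–ENZ168 (402 to 434, 2637 UMIs), and so was highest where the heavy chains were lowest. It made up 92.4% of the UMIs of the 9 genes in VCaP parental, 81.0% in VCaP–ENZ48 and 54.5% in LNCaP–ENZ168.

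**Figure D1:**
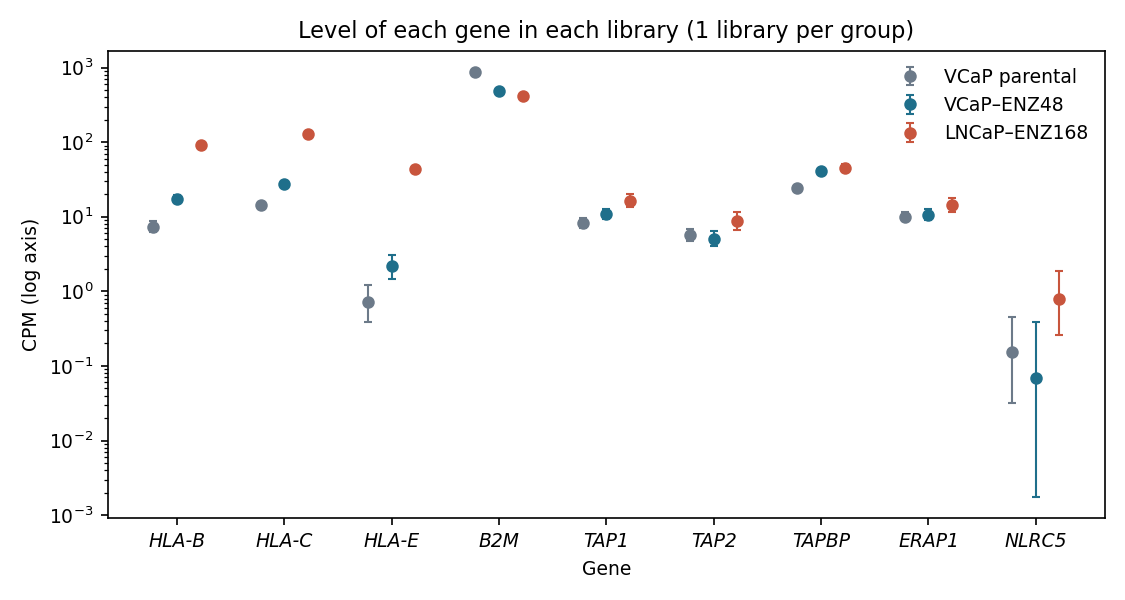
Level of the 9 genes in each library, in CPM on a log axis, with exact Poisson 95% intervals (bars shorter than a point are hidden by it); 1 library per group. HLA-B, HLA-C and HLA-E increase from VCaP parental over VCaP–ENZ48 to LNCaP–ENZ168, while B2M is highest in VCaP parental at 858 CPM.

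For each UMI of HLA-B, HLA-C or HLA-E there were 38.7 B2M UMIs in VCaP parental (95% interval 35.2 to 42.6), 10.3 in VCaP–ENZ48 (9.53 to 11.2) and 1.59 in LNCaP–ENZ168 (1.5 to 1.69). This ratio is taken within a library and does not depend on how libraries are scaled. Over 8 other choices of cells, tried after the values were known, it lay between 37.3 and 40.5 in VCaP parental, 9.0 and 13.1 in VCaP–ENZ48 and 1.58 and 1.84 in LNCaP–ENZ168, so the order of the libraries held in each. The highest value for VCaP–ENZ48 was found among its 127 cells with a barcode ending in a base. Other heavy chain genes are not in the sum, so it is no measure of the protein balance.

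**Figure D2:**
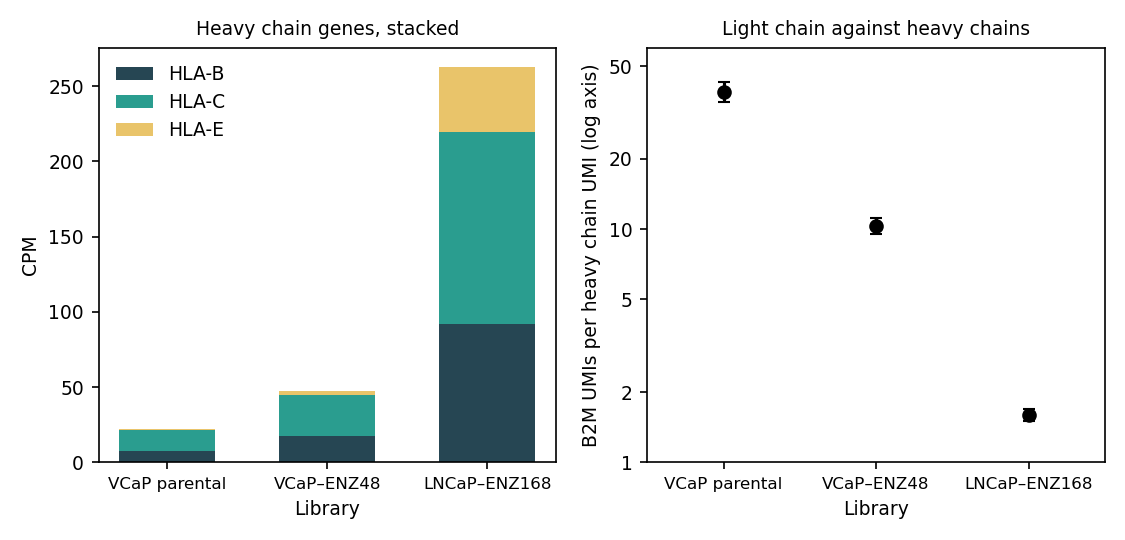
Left, stacked bars of the CPM of HLA-B, HLA-C and HLA-E in each library. Right, B2M UMIs per UMI of these 3 heavy chain genes on a log axis with 95% intervals, from 38.7 in VCaP parental over 10.3 in VCaP–ENZ48 to 1.59 in LNCaP–ENZ168.

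The genes of peptide transport, trimming and loading varied less. TAPBP, which tethers the heavy chain to the transporter, was at 24.0 CPM in VCaP parental (21.9 to 26.3, 468 UMIs), 40.5 CPM in VCaP–ENZ48 (37.3 to 43.9, 579 UMIs) and 45.3 CPM in LNCaP–ENZ168 (40.2 to 50.9, 286 UMIs). TAP1 was at 8.20 CPM (6.98 to 9.57, 160 UMIs), 10.8 CPM (9.20 to 12.7, 155 UMIs) and 16.5 CPM (13.5 to 19.96, 104 UMIs), in the same order. The intervals of TAPBP overlapped between the ENZ libraries, and those of TAP1 overlapped between the VCaP libraries. TAP2, the other subunit of the pump, was at 5.69 CPM (4.68 to 6.85), 5.10 CPM (4.0 to 6.42) and 8.87 CPM (6.70 to 11.5), with 111, 73 and 56 UMIs. ERAP1 was at 10.0 CPM (8.69 to 11.6), 10.7 CPM (9.07 to 12.5) and 14.4 CPM (11.6 to 17.7), with 196, 153 and 91 UMIs. For both genes the VCaP libraries overlapped, and LNCaP–ENZ168 lay highest, with an interval that overlapped VCaP parental for TAP2 and VCaP–ENZ48 for ERAP1.

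NLRC5 was at the limit of detection, with 3 UMIs in VCaP parental, 1 in VCaP–ENZ48 and 5 in LNCaP–ENZ168. These are 0.154 CPM (0.0317 to 0.449), 0.0699 CPM (0.00177 to 0.390) and 0.792 CPM (0.257 to 1.85), and no direction can be read between the VCaP libraries at this depth.

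The comparison within VCaP asked how the genes differed after 48 h of ENZ. Each ratio is a log2 ratio of CPM + 1. Its interval is the exact one for the ratio of the counts without the + 1, and for genes at few CPM it therefore reaches further out than the ratio. In VCaP–ENZ48 over VCaP parental, HLA-B had a ratio of 1.14 (0.95 to 1.56), HLA-C of 0.91 (0.74 to 1.19) and TAPBP of 0.73 (0.58 to 0.93). B2M had a ratio of -0.82 (-0.86 to -0.78). The heavy chains and TAPBP were thus higher and B2M lower in the ENZ library. HLA-E, on 45 UMIs in the pair, had a ratio of 0.88 (0.64 to 2.62), which ran from 0.33 with a pseudocount of 5 CPM to 1.63 among cells with few S and G2M UMIs, and TAP1 one of 0.36 (0.07 to 0.73). TAP2 (-0.13, -0.60 to 0.28), ERAP1 (0.08, -0.22 to 0.40) and NLRC5 (-0.11, -6.85 to 2.50) had intervals that held 0.

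Of the 9 genes, 5 reached a pair mean of 10 CPM in VCaP (HLA-B, HLA-C, B2M, TAPBP and ERAP1). Of these, 1 (HLA-B) was at least 2-fold higher, where 8.19% of all 7729 such genes were, and 0 were at least 2-fold lower, where 6.77% were. This call turned with scaling. Under TMM and median-of-ratios, 2 other ways to scale libraries, 0 of 6 genes were 2-fold higher (HLA-B at 0.89 and 0.94) and 1, B2M, was 2-fold lower (-1.11 and -1.05), where 5.75% and 6.36% of all genes were higher and 12.6% and 11.3% lower. Without mitochondrial and ribosomal protein genes in the total, 2 of 6 were 2-fold higher (HLA-B and HLA-C) and 0 lower, beside 11.4% and 5.29% of all genes. The median ratio of the 5 was 0.73, beside -0.066 over all genes (quartiles -0.44 and 0.34). By ratio, 93.3% of these genes lay below HLA-B, 90.8% below HLA-C, 87.8% below TAPBP and 10.2% below B2M.

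Scaling moved all ratios of the VCaP pair together. TMM shifted the median of all genes by -0.27, median-of-ratios by -0.21 and leaving out mitochondrial and ribosomal protein genes by 0.16. Relative to the median of all genes, HLA-B was at 1.21 and between 0.92 and 1.34 over 14 alternatives, HLA-C was at 0.98 (0.55 to 1.21), TAPBP at 0.80 (0.43 to 1.02) and B2M at -0.75 (-0.82 to -0.69). The lowest values of HLA-C and TAPBP were found among cells with a barcode ending in a base, 138 in VCaP parental and 127 in VCaP–ENZ48, where their ratios were 0.47 and 0.35. TAP1 kept no direction, with a ratio of -0.0042 in those cells. Among cells of 10000 to 20000 UMIs, 548 and 282, the ratios were 1.21 for HLA-B, 1.04 for HLA-C, 0.93 for TAPBP and -0.85 for B2M, so the differences held at like depth.

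**Figure D3:**
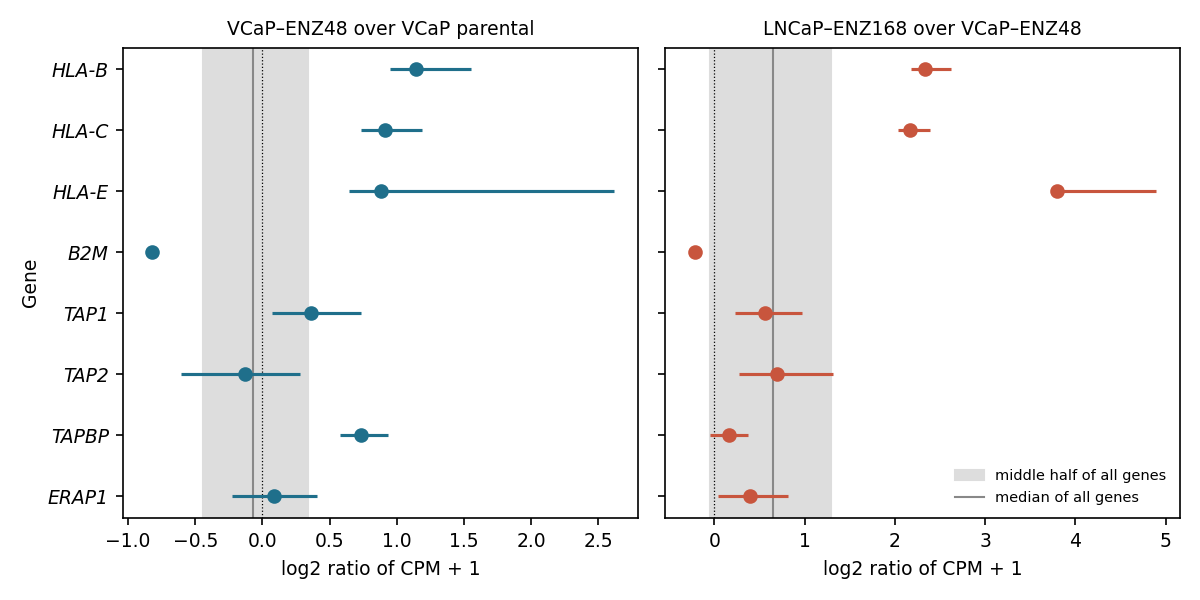
log2 ratios of CPM + 1 for 8 genes in the 2 comparisons, with exact 95% intervals of the count ratio; the grey band spans the quartiles of all genes whose pair mean reached 10 CPM and the grey line their median. Within VCaP, HLA-B, HLA-C and TAPBP lie right of the band and B2M left of it; between the ENZ libraries HLA-B, HLA-C and HLA-E lie right of it.

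Values of LNCaP–ENZ168 were set beside those of VCaP–ENZ48, the other line under the same drug, and both comparisons share the VCaP–ENZ48 library. HLA-E had a log2 ratio of 3.8 (3.77 to 4.90), HLA-B of 2.33 (2.2 to 2.62) and HLA-C of 2.17 (2.03 to 2.39), LNCaP–ENZ168 over VCaP–ENZ48. These 3 were the genes past 2-fold among the 7 whose pair mean reached 10 CPM, and none was 2-fold lower. HLA-E ran from 2.75 to 4.25 over 14 alternatives, HLA-B from 1.81 to 2.56 and HLA-C from 1.64 to 2.71. HLA-B and HLA-C were lowest among cells of 10000 to 20000 UMIs, 96 in LNCaP–ENZ168 and 282 in VCaP–ENZ48. They were highest among cells with a barcode ending in a base, 739 and 127. Among all 8854 such genes 35.5% were at least 2-fold higher and 11.1% lower (17.3% and 17.2% under TMM, 18.2% and 16.8% under median-of-ratios and 27.1% and 14.9% without mitochondrial and ribosomal protein genes), and the median was 0.65, so most genes lay higher in LNCaP–ENZ168 on this scale. Relative to that median HLA-E was at 3.14, HLA-B at 1.68 and HLA-C at 1.52. Among cells of 10000 to 20000 UMIs, relative to the median of all genes there, they were at 2.98, 1.18 and 1.02.

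The remaining genes lay near or below the median of all genes. TAP1 had a ratio of 0.56 (0.23 to 0.97), TAP2 of 0.69 (0.27 to 1.32) and ERAP1 of 0.40 (0.04 to 0.81). Among barcodes ending in a base TAP1 was at 0.95 and TAP2 at 1.22. Among cells of 10000 to 20000 UMIs TAP1 was at 0.04 and ERAP1 at 0.95. TAPBP was at 0.16 (-0.05 to 0.37) and B2M at -0.22 (-0.28 to -0.15), which relative to the median of all genes are -0.50 and -0.87. The median of the 7 was 0.56. Shifts of the median of all genes were -0.55 under TMM and -0.51 under median-of-ratios, under both of which ERAP1 and TAPBP turned negative (TAPBP also without mitochondrial and ribosomal protein genes, at -0.09), while HLA-B, HLA-C and HLA-E kept their direction over all 14 alternatives and B2M stayed below 0. NLRC5 is too sparse for a direction, with 5 UMIs against 1.

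Detection per cell was then compared at 2000 UMIs per cell, in 943 cells of LNCaP–ENZ168, 997 of VCaP parental and 917 of VCaP–ENZ48. At least 1 heavy chain UMI (HLA-B, HLA-C or HLA-E) was found in 5.12% of VCaP parental cells (95% interval 3.83 to 6.67%), 9.81% of VCaP–ENZ48 cells (7.97 to 11.9%) and 40.5% of LNCaP–ENZ168 cells (37.4 to 43.7%). HLA-C was found in 2.81%, 6.0% and 23.2% of cells, and HLA-B in 2.01%, 4.36% and 16.4%. HLA-E was found in 0.301% (3 cells), 0.218% (2 cells) and 8.38% (79 cells). Without thinning, HLA-C was found in 23.4%, 27.9% and 51.4% of cells, which keeps the order in spite of the lower depth of LNCaP–ENZ168. No cell type here is known to lack these genes, so no background share from free RNA could be given.

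B2M was found in 77.8% of thinned VCaP parental cells (75.1 to 80.4%), 60.2% of VCaP–ENZ48 cells (56.9 to 63.4%) and 56.6% of LNCaP–ENZ168 cells (53.4 to 59.8%). TAPBP was found in 4.61%, 8.94% and 8.17% of cells, and TAP1 in 2.01%, 2.73% and 3.39%, in the same order. TAP2, ERAP1 and NLRC5 were in at most 2.55% of cells. NLRC5 was in 0 of 917 thinned VCaP–ENZ48 cells, where 3 counts would be 0.327% and the Clopper-Pearson limit is 0.401%. This limits cells with a UMI at 2000 UMIs and not cells that express the gene, and without thinning 1 cell held it.

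**Figure D4:**
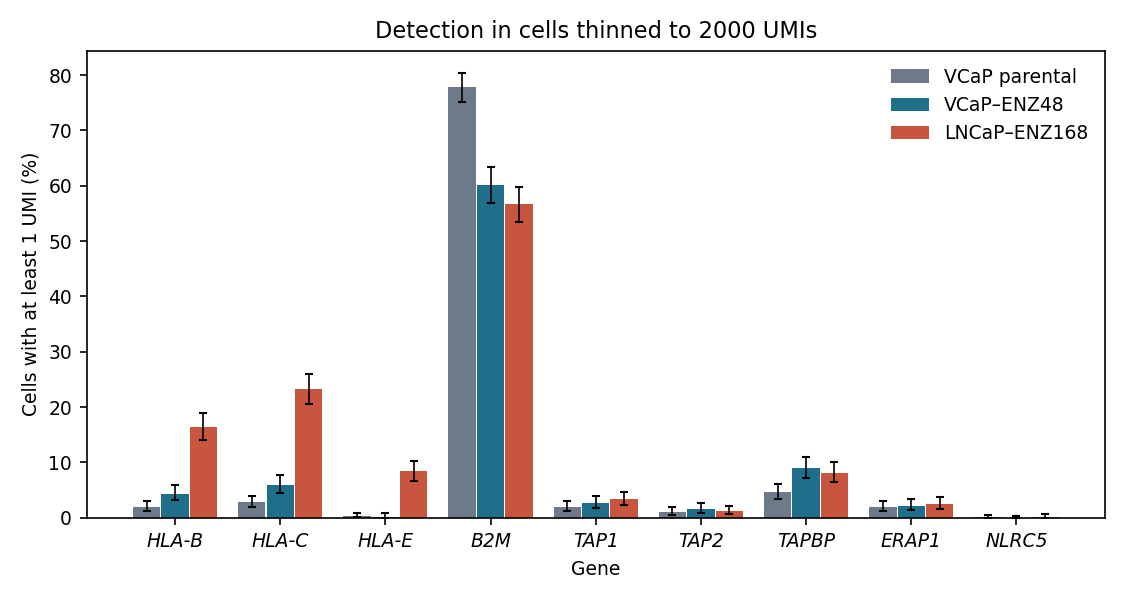
Percent of cells with at least 1 UMI of each gene after thinning to 2000 UMIs per cell, with exact binomial 95% intervals. HLA-B, HLA-C and HLA-E stand out in LNCaP–ENZ168 at 16.4%, 23.2% and 8.38%, and B2M is highest in VCaP parental at 77.8%.

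Heavy chain UMIs were spread over many cells. If the UMIs of a gene were placed in cells by depth alone, 404 LNCaP–ENZ168 cells would hold HLA-B and 501 HLA-C, and 384 and 485 did. In VCaP–ENZ48, 192 cells held HLA-B, where 202 would by depth, and 264 held HLA-C, where 288 would. The observed number was 91.7% to 105% of that expected from depth for every gene and library other than HLA-E in VCaP–ENZ48, where 26 cells held its 31 UMIs (86.3%). The difference between the VCaP libraries was thus not carried by a few cells of many UMIs, and no cell of either held more than 6 UMIs of HLA-B or HLA-C.

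Co-expression within a library could be described for few pairs. Only HLA-B, HLA-C and B2M in LNCaP–ENZ168 reached a mean of 0.1 thinned UMI in pairs, and their Pearson correlations over 943 cells were 0.065 (HLA-B with HLA-C), 0.075 (HLA-B with B2M) and 0.072 (HLA-C with B2M). These cells share 1 library, and values this low in sparse counts are no finding. In VCaP–ENZ48, HLA-C was found in 17.5% of the 40 cells with an HLA-B UMI (7.34 to 32.8%) and in 5.47% of the 877 without (4.06 to 7.19%). In LNCaP–ENZ168 the shares were 28.4% of 155 cells (21.4 to 36.2%) and 22.2% of 788 (19.4 to 25.3%), whose intervals overlap. In VCaP parental HLA-C was found in 0 of the 20 cells with an HLA-B UMI (0 to 16.8%) and in 2.87% of the 977 without (1.91 to 4.12%). These 20 cells are too few to read a direction. Over genes with a mean of at least 0.1 thinned UMI, the highest correlations with the summed UMIs of the 9 genes were 0.20 for TMBIM6 in VCaP–ENZ48 (917 cells), 0.17 for the endoplasmic reticulum chaperone HSP90B1 in VCaP parental (997 cells) and 0.14 in LNCaP–ENZ168, where PSAP had 0.13. B2M made up 92.4% of that sum over the kept cells of VCaP parental and 81.0% in VCaP–ENZ48, so these values mostly describe B2M. Without B2M in the sum, TMBIM6 was still highest in VCaP–ENZ48, at 0.16. HSP90B1 was then not among the 5 highest in VCaP parental. All are weak, and among the lowest with the full sum were ribosomal protein genes, with RPL32 at -0.29 in VCaP–ENZ48.

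VCaP–ENZ48 held far fewer UMIs of S and G2M genes than VCaP parental, so the genes were also compared within each library between the tertiles of cells with the most (upper tertile) and the fewest thinned UMIs of 97 S and G2M genes. The lowest tertile of VCaP parental cells held up to 11 such UMIs and the highest 37 to 123, while in VCaP–ENZ48 these tertiles held up to 3 and 5 to 124. B2M was slightly higher in the upper tertile, with a log2 ratio of 0.13 (0.08 to 0.19) in VCaP parental and of 0.19 (0.11 to 0.27) in VCaP–ENZ48. HLA-B (-0.07, -0.63 to 0.49) and HLA-C (0.17, -0.25 to 0.62) had intervals that held 0 in VCaP parental, as they did in VCaP–ENZ48 (0.04 and 0.19).

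In LNCaP–ENZ168 the upper tertile had less HLA-E (31.6 against 51.6 CPM, log2 ratio -0.69, -1.16 to -0.26), TAPBP (36.3 against 49.3 CPM, -0.43, -0.88 to -0.01) and HLA-B (80.9 against 99.995 CPM, -0.30, -0.60 to -0.01). HLA-C was near 0 there (0.03, -0.22 to 0.27). These ratios were taken for all 9 genes in 3 libraries, and cells of a library are not replicates. The ratios of LNCaP–ENZ168 over VCaP–ENZ48, for size, were 2.33 for HLA-B, 3.8 for HLA-E and 0.16 for TAPBP. What part the cell cycle had in the differences between libraries was not tested. Among cells with at most 4 thinned S and G2M UMIs (103 in VCaP parental, 584 in VCaP–ENZ48) the VCaP ratio was 1.26 for HLA-B, 0.90 for HLA-C, 0.68 for TAPBP and -0.82 for B2M.

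**Figure D5:**
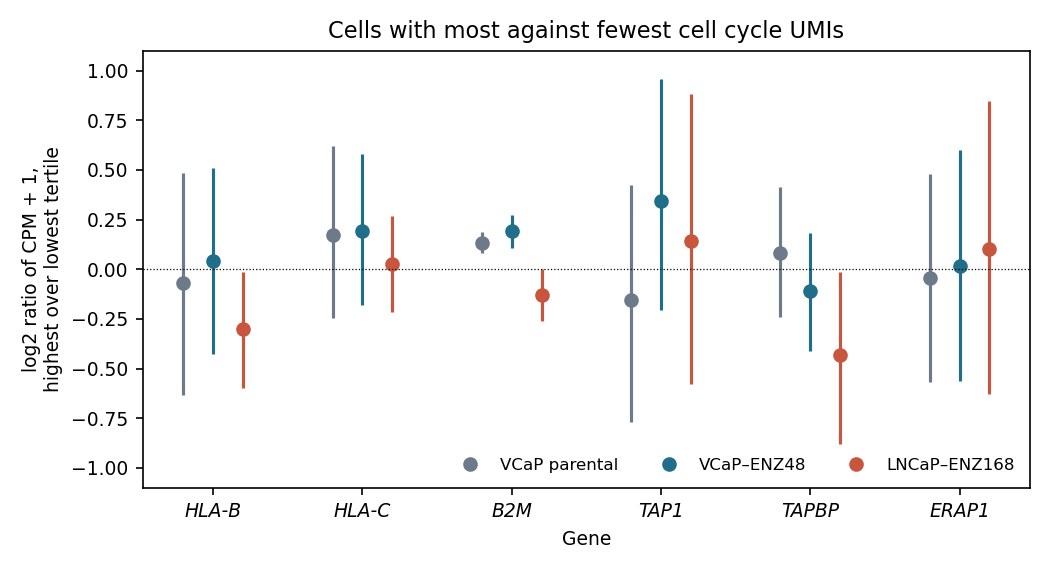
log2 ratio of CPM + 1 between the tertiles of cells with the most and the fewest cell cycle UMIs, within each library, with exact 95% intervals. B2M lies above 0 in both VCaP libraries (0.13 and 0.19), and HLA-B and TAPBP lie below 0 in LNCaP–ENZ168 (-0.30 and -0.43).

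The other genes of the pathway did not move as one with the heavy chains. Of 5 genes of the immunoproteasome and its activator, 3 were at a mean of at least 10 CPM in the VCaP pair and 0 passed 2-fold, with a median of -0.11. Over all 7729 such genes, 8.19% were at least 2-fold higher and 6.77% lower. For lists this short, here and below, a count of 0 is therefore the usual outcome and no result about the list. PSMB8, an interferon-induced catalytic subunit, was at 12.2 CPM in VCaP parental and 20.6 CPM in VCaP–ENZ48 (0.71, 0.50 to 1.00), but at 0.634 CPM (4 UMIs) in LNCaP–ENZ168 (-3.73, -6.91 to -3.65). PSMB9, its partner next to TAP1, was at 3.69, 5.03 and 0.95 CPM. Both were thus lowest in the library with the most heavy chain transcripts, while PSMB10, the remaining inducible subunit, was at 5.33, 8.25 and 5.70 CPM. The activator genes PSME1 (189, 175 and 276 CPM) and PSME2 (152, 89.6 and 174 CPM) were highest in LNCaP–ENZ168. Their ratios over VCaP–ENZ48 were 0.66 and 0.95, beside a median of 0.65 over all genes.

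All 3 constitutive counterparts, the catalytic subunits PSMB5, PSMB6 and PSMB7, were lower in VCaP–ENZ48 than in VCaP parental, with a median of -0.68 (lowest -0.88, highest -0.52) and 0 past 2-fold. PSMB5 (1.33) and PSMB6 (1.53) were past 2-fold higher in LNCaP–ENZ168 than in VCaP–ENZ48, as were 35.5% of all genes. Of 4 loading chaperones, 3 were tested within VCaP and 0 passed 2-fold (median -0.33). CALR was at 530 CPM in VCaP parental, 513 CPM in VCaP–ENZ48 and 1482 CPM in LNCaP–ENZ168 (1.53, 1.49 to 1.57), while CANX was at 1322, 914 and 593 CPM, the reverse order. Peptide-trimming genes had 0 of 5 past 2-fold within VCaP (median -0.48). Between the ENZ libraries 0 of 4 were, beside 35.5% of all genes higher and 11.1% lower. NRDC (174, 125 and 157 CPM) and TPP2 (56.6, 39.5 and 49.4 CPM) were the most abundant. ERAP2, the relative of ERAP1, was at 14.8, 8.53 and 2.22 CPM, highest in VCaP parental.

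Among 21 regulators (interferon receptors, their signalling proteins, IRFs, RFX, NF-Y, CREB/ATF and NF-κB factors), 15 were tested in the VCaP pair and 0 passed 2-fold in either direction, with a median of -0.051 (lowest -0.69, highest 0.83). Of all genes in that pair, 8.19% were at least 2-fold higher and 6.77% lower. IRF9, an interferon-response factor below the mean of 10 CPM, was at 0.666 CPM (13 UMIs) in VCaP parental and 4.75 CPM (68 UMIs) in VCaP–ENZ48 (1.79, 1.97 to 3.82). Between the ENZ libraries 18 were tested, with 7 (38.9%) past 2-fold higher in LNCaP–ENZ168, near the 35.5% of all genes, and 1 lower (median 0.65, beside 0.65 over all genes). Among the 7 were JAK2 (41.3 against 2.31 CPM, 3.68), RFXANK (99.6 against 21.7 CPM, 2.15), NFKB1 (30.4 against 6.43 CPM, 2.08), RFX5 (42.1 against 10.3 CPM, 1.93), NFYA (17.4 against 6.43 CPM, 1.31) and CREB1 (69.9 against 31.7 CPM, 1.12). RFX5 and RFXANK are subunits of the RFX complex. The 1 lower was JAK1 (10.1 against 27.4 CPM, -1.35), which acts with JAK2 at the interferon-γ receptor. The most abundant regulators in VCaP were the receptor IFNAR1 (248, 206 and 114 CPM over VCaP parental, VCaP–ENZ48 and LNCaP–ENZ168) and ATF1 (80.3, 64.5 and 57.0 CPM).

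Interferon-stimulated genes were few at these depths, with 3 of 11 tested in either comparison. ISG15 was at 55.9 CPM in VCaP parental, 31.7 CPM in VCaP–ENZ48 and 99.2 CPM in LNCaP–ENZ168, and IFITM3 at 23.4, 27.6 and 103 CPM. IFI6 was at 7.94, 14.7 and 35.5 CPM. Within VCaP the 3 went different ways (ISG15 -0.80, IFITM3 0.23, IFI6 0.81) and 0 passed 2-fold, beside 8.19% of all genes higher and 6.77% lower. Between the ENZ libraries all 3 were past 2-fold higher in LNCaP–ENZ168 (1.62, 1.87 and 1.22), as were 35.5% of all genes. Of the untested genes of this list, OAS1 (-1.36), IFIT3 (-0.88) and IFIT2 (-0.50) were lower there. The other untested genes had ratios above 0. IFIT2, below the mean of 10 CPM, went from 4.36 to 10.7 CPM within VCaP (1.13, 0.90 to 1.70).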

How the data were processed

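Single-cell libraries were prepared with Drop-seq from LNCaP–ENZ168, VCaP parental and VCaP–ENZ48, 1 library per group. To make the files, the authors ran STAR, Picard and the Drop-seq tools at default settings on GRCh38 with Gencode genes, and asked for 1000 cells. What they deposited are unnormalized UMI counts for each gene and barcode, and a gene without a row was taken as 0.

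A barcode was kept when it had no fewer than 300 genes and 500 UMIs and a mitochondrial share of at most 25%, and doublets were not called. UMIs were summed per library and scaled to CPM. Levels carry exact Poisson, ratios exact conditional and shares Clopper-Pearson 95% intervals. The limit of a count of 0 is 3 counts. Ratios use CPM + 1, and medians and 2-fold counts use genes whose pair mean reached 10 CPM. Cells are not replicates, so no test was made. Named genes were the 9 genes, listed pathway genes of at least 10 CPM past 2-fold and the 2 most abundant per list, and the genes most correlated with the sum. PSMB9, PSMB10, ERAP2, HLA-DRA, CD74, CIITA, IRF9 and RPL32 were named after their values were seen. Members and lists were chosen with earlier results of these data known, and some listed genes are not reported here. Alternatives covered cell sets, scaling, pseudocount, minimum level and thinning. The scripts were tested on simulated data. Promoters are RefSeq windows of GRCh38.p14, and positions come from a later Gencode release than the authors used. TMM factors came from edgeR 4.0.16 and cell cycle genes from Seurat 5.3.0 (R 4.3.3). Other steps ran in scipy 1.17.1, numpy 2.4.6 and pandas 2.3.3, and matplotlib 3.10.9 drew the plots (Python 3.11.15).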

Additional observations from a re-analysis of the deposited data

How the results depend on the processing

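With 1 library per group the values rest on counting alone, and replicates could neither be paired nor left out. Of the alternative values of single-gene ratios, 206 stayed within the counting interval of the main value, 42 left it, and 4 changed sign although that interval left out 0. These 4 were TAP1 within VCaP among barcodes ending in a base (-0.0042) and among cells with few S and G2M UMIs (-0.034), and ERAP1 between the ENZ libraries under TMM (-0.093) and median-of-ratios (-0.060). The cause was not tested. The median ratio of the genes tested within VCaP, 0.73, was 0.35 among barcodes ending in a base, 0.99 among cells of 10000 to 20000 UMIs, 0.32 among cells with few S and G2M UMIs, 0.28 under TMM, 0.33 under median-of-ratios and 0.55 at a mean of at least 1 CPM. The 5 genes behind it became 4 among cells of 10000 to 20000 UMIs, 6 among cells with few S and G2M UMIs and under both scalings, and 8 at 1 CPM, so these medians are not over the same genes. At a mean of at least 50 CPM it was -0.82, since only B2M passed. The number past 2-fold there, 1, was 2 without barcodes above 3 times the median depth, among cells of 10000 to 20000 UMIs, with equal weight to each cell and without mitochondrial and ribosomal protein genes in the total, and 0 with a pseudocount of 5 CPM or a mean of at least 50 CPM. Under TMM and median-of-ratios it was 1 again, but this was B2M lower and not HLA-B higher. Between the ENZ libraries the median, 0.56, was 0.95 among barcodes ending in a base and among cells of 10000 to 20000 UMIs. It was 0.067 under TMM, 0.10 under median-of-ratios and 2.17 at a mean of at least 50 CPM. The number past 2-fold was 3 in every alternative but the last, where it was 2 of 3 genes. Shares of cells moved mainly with the depth of thinning. Depth limits NLRC5 in every library and HLA-E in VCaP.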

Other observations

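Class I-like molecules differed in both directions between LNCaP–ENZ168 and the VCaP libraries. FCGRT, the neonatal Fc receptor and a partner of B2M, was at 33.1 CPM in VCaP parental, 51.0 CPM in VCaP–ENZ48 (log2 ratio 0.61, 0.47 to 0.78) and 3.17 CPM in LNCaP–ENZ168 (-3.64 over VCaP–ENZ48, -4.73 to -3.37). MR1, which presents vitamin metabolites to MAIT cells and also pairs with B2M, was at 1.38, 4.89 and 16.8 CPM, the order of the heavy chains. MICA, a stress ligand of the NK cell receptor NKG2D that needs no B2M, was at 0.205, 0.350 and 15.7 CPM, and the related ligands ULBP1 (2.97, 4.62 and 13.1 CPM), ULBP2 (4.51, 4.55 and 11.6 CPM) and ULBP3 (3.13, 2.03 and 12.4 CPM) were also highest in LNCaP–ENZ168. These ligands lay below a pair mean of 10 CPM, and their ratios over VCaP–ENZ48 were 3.63, 1.33, 1.18 and 2.14. Of all genes at that mean, 35.5% were at least 2-fold higher in LNCaP–ENZ168, with a median of 0.65.

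MHC class II genes had no common order. HLA-DRB1 was at 21.1 CPM in VCaP parental and 29.4 CPM in VCaP–ENZ48 (0.46, 0.28 to 0.68) but at 0.634 CPM in LNCaP–ENZ168, while its partner chain HLA-DRA stayed at or below 1.43 CPM, CD74 at or below 0.317 CPM and the class II regulator CIITA at or below 1.27 CPM in every library. Whether HLA-DRB1 reads come from a gene of the same family was not tested. The peptide-exchange genes HLA-DMA (1.28, 2.10 and 13.9 CPM) and HLA-DMB (20.3, 14.1 and 15.8 CPM) had different orders, that of HLA-DMA being the order of the heavy chains.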
